A study of Mus musculus with 2 samples.

Results

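Fc receptors are the proteins by which cells bind the constant part of antibodies, and 6 genes of this family were examined among the 55536 genes quantified in stimulated mouse macrophages. The members were chosen by name and not by a rule on their values, though earlier results of these data were known. All 6 were found in both libraries. Fcgr1, Fcgr3 and Fcgr4 code for activating receptors of IgG, and Fcgr2b codes for the inhibitory receptor of IgG. Fcer1g codes for the signalling chain that the activating receptors share, and Fcgrt for the heavy chain of the neonatal Fc receptor. The samples were polyadenylated RNA of whole macrophages, grown in culture from bone marrow precursors of the mouse strain C57BL/6J. The labels state no genetic change, sex or age, and give 300 min of stimulation at 100 ng/mL. The labels call the stimulus Lipid A in one field and lipoprotein A, a protein, in others, so it is named here only as the stimulus. The series holds 1 group of 2 libraries, biological replicates 1 and 2, which are separate biosamples from a single donor record. Unstimulated cells were not analysed here, so the values are levels after stimulation, and none is a response to it.

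Activating Fc gamma receptors hold IgG outside the cell and have no activation motif of their own. They pair with the product of Fcer1g, whose tail carries an immunoreceptor tyrosine-based activation motif (ITAM). When immune complexes cluster the receptors, Src family kinases phosphorylate the ITAM, the kinase Syk docks there, and phagocytosis and cytokine release follow. Fcgr2b carries an immunoreceptor tyrosine-based inhibitory motif (ITIM), which recruits the phosphatase SHIP-1, the product of Inpp5d, and dampens that signal. The balance of activating and inhibitory receptors is known to set the threshold at which a macrophage answers IgG. Fcgrt works inside the cell, where its product pairs with beta-2 microglobulin and returns IgG from endosomes to the surface.

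The coding sequences below come from the leading transcripts, except for the third, and were read from the GENCODE M21 transcripts on mm10 and written 5′ to 3′. The first 2 carry the opposing motifs. The third is the exon that separates the forms of the inhibitory receptor, and the fourth is the longest run of bases that an activating and the inhibitory receptor have in common. In the first, from Fcer1g-201 (codons 62 to 82, spliced from chr1:171229880-171230081, minus strand), capitals mark both groups of codons of the ITAM that hold a tyrosine. In the second, from Fcgr2b-202 (codons 264 to 281, spliced from chr1:170961053-170961201, minus strand), capitals mark the ITIM. In the third, from Fcgr2b-201 (chr1:170963325-170963465, minus strand), all bases belong to the exon that Fcgr2b-202 lacks. The fourth is in lower case throughout and lies in both Fcgr2b-202 (codons 93 to 135, spliced from chr1:170966674-170968081, minus strand) and Fcgr3-201 (codons 88 to 130, spliced from chr1:171054167-171057792, minus strand).
Fcer1g ITAM: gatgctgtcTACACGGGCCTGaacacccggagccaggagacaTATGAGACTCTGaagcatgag
Fcgr2b ITIM: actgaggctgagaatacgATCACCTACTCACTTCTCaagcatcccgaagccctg
Fcgr2b exon: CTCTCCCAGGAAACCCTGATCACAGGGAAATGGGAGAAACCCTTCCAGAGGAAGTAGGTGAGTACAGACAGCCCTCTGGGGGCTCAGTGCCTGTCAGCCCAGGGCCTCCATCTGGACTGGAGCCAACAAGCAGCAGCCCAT
Fcgr2b and Fcgr3 shared run: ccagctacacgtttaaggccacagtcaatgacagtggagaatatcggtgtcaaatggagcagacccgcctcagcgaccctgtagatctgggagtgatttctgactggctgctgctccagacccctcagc

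The ITAM was searched in the translated coding sequence as a tyrosine, any pair of residues and a leucine or isoleucine, repeated after a spacer of 6 to 12 residues. Of 12 coding sequences of the 6 genes it was found in 1, that of Fcer1g-201, against 6.53% of 21584 protein-coding genes (longest coding sequence of each). Fcer1g-203, a minor coding transcript, held no match. At 276 coding bases against 258 it is the longest of Fcer1g, so the members and all genes were not counted alike. The ITIM, searched as serine, isoleucine, valine or leucine, any residue, tyrosine, any pair of residues, and isoleucine, leucine or valine, is so loose that it occurred in 49.1% of all genes and in 10 of the 12 sequences. Only the match in the tail of Fcgr2b is printed. It is the same 54 bases in Fcgr2b-201, at codons 311 to 328, since the extra exon lies before it.

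Both libraries were deep and had the profile of macrophages. Expected counts, the estimated reads per gene, summed to 38028201 in replicate 1 and 63649100 in replicate 2 over gene rows. All 10 macrophage markers, of which Fcgr1 is one, reached 1 TPM (a share of all transcripts, corrected for length and scaled to the same total in each library) in both libraries, with summed levels of 16084 and 22445 TPM in replicates 1 and 2. Of all 55536 genes, 9982 reached 1 TPM in both libraries. Markers of other cells that carry Fc receptors were mostly low. Of 7 B cell markers 2 reached 1 TPM in both libraries, and the defining gene Cd79a stood at 0.03 and 0.08 TPM. The 10 neutrophil markers summed to 508 and 18.7 TPM in replicates 1 and 2, led by S100a9 at 316 and 10.2 TPM, while Ly6g had 0 counts in both. Of 8 mast cell and basophil markers only Hdc reached 1 TPM in both libraries (77.9 and 63.9 TPM), with Mcpt4 and Tpsb2 at 0, and of 7 NK cell markers only Klrk1 did (56.1 and 31.9 TPM), with Gzma and Prf1 at 0. Only Ccr7 (9.85 and 2.92 TPM) of 7 dendritic cell markers reached 1 TPM in both libraries. Endothelial markers did so in 4 of 7 cases, led by Kdr at 20.0 and 67.6 TPM in replicates 1 and 2. In bulk RNA, fewer cells of a type and less RNA per cell cannot be told apart. The labels share a donor record and do not say whether the cultures were separate, so the spread between the libraries may in part be technical.

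Fcer1g was the most abundant of the 6 genes and Fcgrt the least, and the 4 receptors of IgG lay between them in a narrow band. Fcer1g stood at 1973.7 and 2944.61 TPM in replicates 1 and 2 (mean 2459 ± 687 TPM, SD, n = 2). This placed it 64th and 41st among all genes of the library. Among the activating receptors Fcgr3, which codes for a low-affinity receptor of IgG immune complexes, was highest, at 618.48 and 1070.54 TPM in replicates 1 and 2 (845 ± 320 TPM, SD, n = 2). Fcgr4, whose product binds mouse IgG2a and IgG2b, differed little between the libraries, at 504.02 and 536.2 TPM (520 ± 22.8 TPM, SD, n = 2). Fcgr1, the high-affinity receptor that can hold single IgG molecules, stood at 481.06 and 381.27 TPM (431 ± 70.6 TPM, SD, n = 2). Of the 4 Fc gamma receptors it alone thus had a lower TPM in replicate 2. The inhibitory Fcgr2b had 541.79 and 996.84 TPM in replicates 1 and 2 (769 ± 322 TPM, SD, n = 2). Fcgrt had 88.29 and 54.11 TPM (71.2 ± 24.2 TPM, SD, n = 2), ranked 1475th and 2198th, and its higher value lay below the lower value of every other member.

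**Figure D1:**
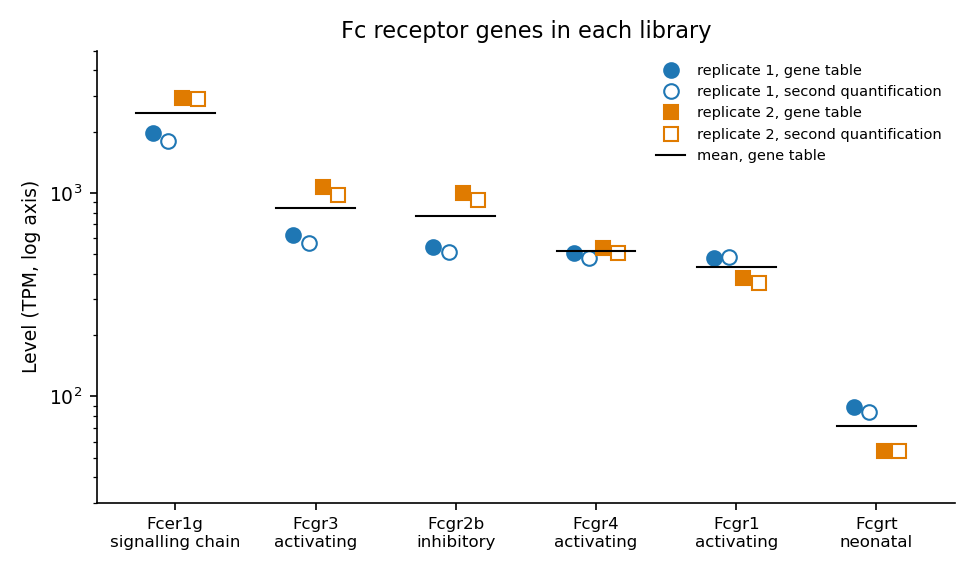
Level of each of the 6 Fc receptor genes in TPM on a log axis, with replicate 1 as blue circles and replicate 2 as orange squares, filled for the gene table and open for the second quantification; black bars are the mean of the 2 gene table values. Fcer1g lies above all others at 1973.7 and 2944.61 TPM, Fcgrt below all others at 88.29 and 54.11 TPM, and Fcgr4 has the closest pair of filled points.

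The order of the TPM levels was the same in both libraries, Fcer1g, Fcgr3, Fcgr2b, Fcgr4, Fcgr1 and Fcgrt. Of the neighbours in it, only Fcgr3 and Fcgr2b had ranges that overlapped over the libraries. Within a library the steps could still be small: Fcgr4 exceeded Fcgr1 by 0.07 on the log2 scale in replicate 1 and by 0.49 in replicate 2. In the second quantification, made from the reads and an index rather than from alignments, Fcgr4 and Fcgr1 overlapped as well, with Fcgr4 at 477 and 506 TPM and Fcgr1 at 484 and 362 TPM. The other values there were close to the first ones: Fcer1g had 1796 and 2889 TPM, Fcgr3 567 and 975 TPM, Fcgr2b 512 and 927 TPM, and Fcgrt 83.4 and 54.0 TPM.

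Counts gave another order, because long transcripts yield more reads. Fcgr1, whose transcripts had a mean length of 2512 bases in replicate 1 and 2568 bases in replicate 2, held 26910 and 36432 expected counts, the most of any member in replicate 1. Fcgr2b, at 1750 and 1768 bases, held 19960.6 and 62437.6 counts, the most in replicate 2. Fcer1g, at only 673 bases in both, held 19513 and 51776 counts, close to those of Fcgr2b although its TPM was far higher. Fcgr3 held 16496.4 and 48283.4 counts, Fcgr4 12335 and 22284 counts, and Fcgrt 2975 and 3335 counts. By counts the ranges of Fcgr2b and Fcer1g, of Fcer1g and Fcgr3, and of Fcgr3 and Fcgr1 overlapped. Levels of different genes are therefore compared in TPM below, with the counts beside them. Together the 6 genes took 0.421% of all TPM in replicate 1 and 0.598% in replicate 2, and 0.258% and 0.353% of the counts.

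The summed activating receptors exceeded the inhibitory receptor in both libraries, by TPM and by counts, but no single one of them did so by much. Fcgr1, Fcgr3 and Fcgr4 summed to 1603.56 and 1988.01 TPM in replicates 1 and 2, against 541.79 and 996.84 TPM for Fcgr2b. The activating sum was 2.96 times the inhibitory level in replicate 1 and 1.99 times in replicate 2 (mean 2.48 ± 0.683, SD, n = 2). On the log2 scale the ratio of TPM was 1.57 and 1.00 (1.28 ± 0.40, SD, n = 2). By expected counts the activating sum was 55741.4 in replicate 1 and 106999 in replicate 2, against 19960.6 and 62437.6 for Fcgr2b, a ratio of 2.79 and 1.71. No test was run on this ratio: over 2 libraries the smallest two-sided p of an exact permutation of signs is 0.5.

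Taken singly, the activating receptors stood in different relations to Fcgr2b. Fcgr3 was level with it, with a log2 ratio of TPM of 0.19 in replicate 1 and 0.10 in replicate 2. By counts the sign turned, to -0.28 and -0.37, because the transcripts of Fcgr3 are shorter than those of Fcgr2b. Fcgr4 was lower than Fcgr2b, with log2 ratios of TPM of -0.10 and -0.89 and of counts of -0.69 and -1.49. Fcgr1 had log2 ratios of TPM of -0.17 and -1.39, and of counts of 0.43 and -0.78. Fcgr1 was thus above Fcgr2b in 1 of these 4 values, the counts of replicate 1. The excess of activating over inhibitory transcripts rested on summing 3 genes.

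The makeup of the receptors of IgG differed between the libraries. Fcgr2b made up 25.3% of the TPM of the 4 receptors in replicate 1 and 33.4% in replicate 2 (29.3% ± 5.76, SD, n = 2). By counts its share was 26.4% of 75702 in replicate 1 (95% Wilson interval 26.1 to 26.7%) and 36.9% of 169437 in replicate 2 (36.6 to 37.1%). These intervals cover counting error only and say nothing of the spread between cultures, so the difference has no test. Fcgr3 made up 28.8% and 35.9% of the TPM. Fcgr4 made up 23.5% and 18%. Fcgr1 made up 22.4% and 12.8%. In replicate 1 the 4 receptors were thus nearly even, whereas in replicate 2 Fcgr3 and Fcgr2b led and Fcgr1 was lowest.

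**Figure D2:**
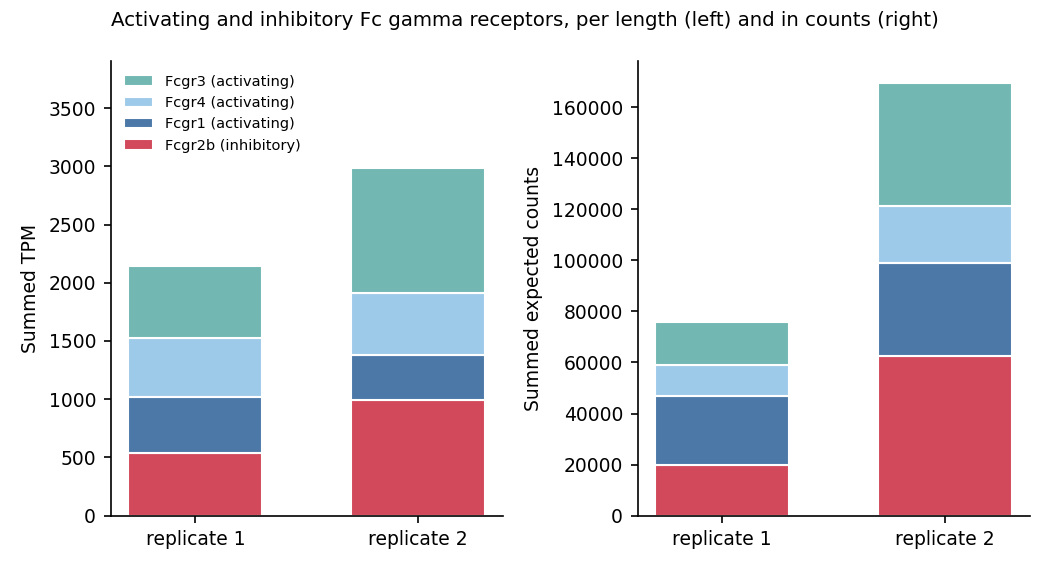
Summed level of the 4 receptors of IgG in each library, in TPM on the left and in expected counts on the right, with the inhibitory Fcgr2b in red at the base and the activating receptors in blue and green above it. The red part is 25.3% of the bar in replicate 1 and 33.4% in replicate 2 by TPM, and 26.4% and 36.9% by counts.

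The transcript of the signalling chain was about as abundant as those of the receptors of IgG together. Fcer1g had 1.23 times the summed TPM of Fcgr1, Fcgr3 and Fcgr4 in replicate 1 and 1.48 times in replicate 2, a log2 ratio of 0.30 and 0.57 (0.43 ± 0.19, SD, n = 2). Set against all 4 receptors of IgG, its TPM was 0.92 and 0.987 times the sum. By expected counts, which are not corrected for its short transcript, the log2 ratio of Fcer1g to the activating sum was -1.51 and -1.05. The product of Fcer1g acts as a dimer and also serves other receptors, which are described below.

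For the neonatal Fc receptor the heavy chain was scarce beside its partner. Fcgrt had 88.29 and 54.11 TPM in replicates 1 and 2, while B2m, which codes for beta-2 microglobulin, had 9181 and 14667 TPM. The log2 ratio of TPM was -6.70 and -8.08 (-7.39 ± 0.98, SD, n = 2). B2m also pairs with class I molecules of antigen presentation.

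The libraries differed in 3 of the 6 genes by 1.5-fold or more, and all 3 were higher in replicate 2. The values are ratios of expected counts scaled by TMM, which equalizes most genes between libraries. Over all 12226 genes with enough counts, 35.8% differed by as much, 19.1% in the direction of replicate 1 and 16.7% in that of replicate 2. The log2 ratio of replicate 1 over replicate 2 was -1.08 for Fcgr2b, -0.99 for Fcgr3 and -0.85 for Fcer1g. It was -0.29 for Fcgr4, 0.12 for Fcgr1 and 0.40 for Fcgrt, none of which reached 1.5-fold. No member was higher in replicate 1 by that much, against 3 of 6 higher in replicate 2, a share above the 16.7% of all genes. With 1 library on each side the ratios have no replicate check and no test.

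**Figure D3:**
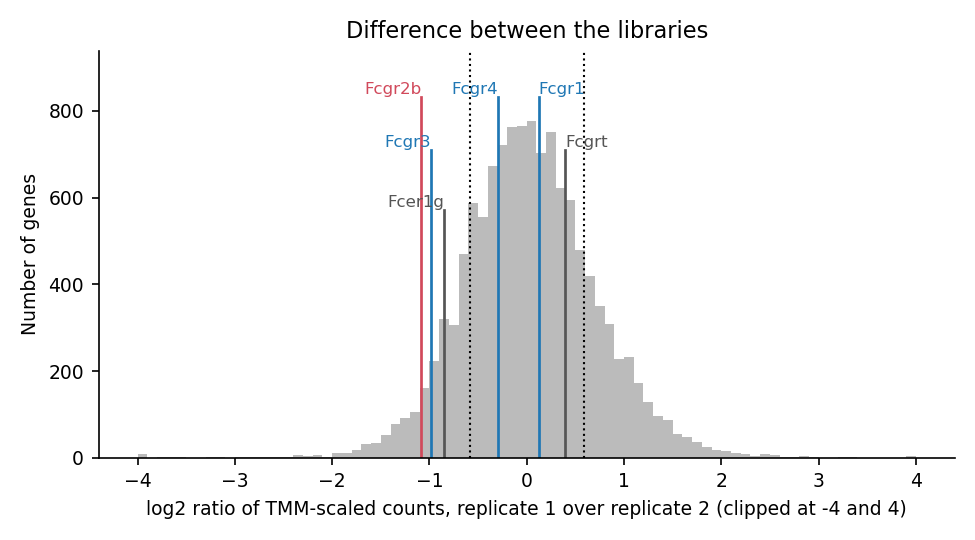
Histogram of log2 ratios between the libraries (replicate 1 over replicate 2, counts scaled by TMM) for the 12226 genes with enough counts; dotted lines mark 1.5-fold and coloured lines the Fc receptor genes (blue activating, red inhibitory, grey Fcer1g and Fcgrt). Fcgr2b at -1.08, Fcgr3 at -0.99 and Fcer1g at -0.85 lie left of the lower dotted line, and Fcgr4, Fcgr1 and Fcgrt lie between the lines.

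The libraries also differed in other properties. Genes low in GC were higher in replicate 1: over 10 bins of GC content, the median log2 ratio was 0.69 in the lowest bin and between -0.18 and -0.10 in the upper 6. The members had 47.1 to 55.9% GC, outside that lowest bin. With the trend of GC and length removed, a setting added after seeing the data, the ratios were -1.15 for Fcgr2b, -0.95 for Fcgr3, -0.88 for Fcer1g, -0.32 for Fcgr4, 0.31 for Fcgr1 and 0.53 for Fcgrt. The same 3 genes passed 1.5-fold, against 29.9% of all genes, 14.8% higher in replicate 1 and 15% higher in replicate 2. Neutrophil markers ran the other way, with 4 of 4 genes that had enough counts higher in replicate 1 and a median log2 ratio of 4.33. Their part in the levels of the Fc receptor genes was not tested. The median log2 ratio of all genes was 0.19 when scaled by library totals and 0.15 by TPM, against 0.01 with TMM. With these scalings 72% and 64.7% of the genes past 1.5-fold were higher in replicate 1, against 53.4% with TMM. By TPM Fcer1g no longer passed 1.5-fold (-0.58), and Fcgrt did, higher in replicate 1 (0.71).

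At the level of transcripts, Fcgr2b was present mainly in the form without the extra cytoplasmic exon. The exon printed above has 141 bases, or 47 codons, at codons 253 to 299 of Fcgr2b-201, between the membrane and the ITIM. In mice the form with it, known as b1, is the main form of B cells and is retained at their surface. The form without it, b2, is known as the form of macrophages, which can be taken up with its ligand. Fcgr2b-202, which lacks the exon, held 431.5 and 820.14 TPM in replicates 1 and 2. Fcgr2b-201, which carries it, held 76.67 and 149.14 TPM. Of the TPM of coding transcripts, forms without the exon held 84.8% in replicate 1 and 84.5% in replicate 2, and forms with the whole exon held 15.1% and 15.4%. The split was thus nearly the same in both libraries although the gene's level was not. In the second quantification forms without the exon held 84.4% and 86%. By expected counts the gap was narrower: Fcgr2b-202 held 12786.5 and 41036.2 in replicates 1 and 2, and Fcgr2b-201 6270.1 and 20238.9. Fcgr2b-201 is 3544 bases long and Fcgr2b-202 1462, of which 1020 and 879 are coding. Most of the extra length thus lies outside the exon. Reads over the exon itself were not counted here, so the split is of annotated transcripts and not a measure of the exon's use. Fcgr2b-203, which carries 57 of the 141 bases, had 0.85 and 1.67 TPM. The B cell markers summed to 17.2 and 18.2 TPM in replicates 1 and 2, with Cd22 highest at 10.4 and 11.0 TPM. Which cells held Fcgr2b-201 was not tested, and levels of markers cannot be set against that of a transcript to tell.

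The other receptors of IgG had 1 leading coding transcript each. Fcgr3-201 held 88.5% of the TPM of Fcgr3 in replicate 1 and 83.6% in replicate 2, and Fcgr3-204, whose coding sequence is 798 bases against 801, held 9.49% and 12.1%. Fcgr3-203, which keeps an intron, held 2.05% and 4.29%. Fcgr1-201 held 96.1% and 99.0% of the TPM of Fcgr1, and Fcgr4 had a single annotated transcript. Fcer1g-201, the transcript with the ITAM, held 98.7% and 99.3% of the TPM of Fcer1g. Fcer1g-203, which has no match to the motif, held 0.84% and 0.39%.

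The transcripts of Fcgrt were the exception, because the quantifications differed. In the first, Fcgrt-201 held 60.8% of the gene's TPM in replicate 1 and 88.9% in replicate 2, and Fcgrt-206, which keeps an intron and has no coding sequence, held 17.0% and 2.04%. In the second, Fcgrt-201 held 53.7% and 58.8%, and Fcgrt-206 held 28.9% and 33.5%. The gap between the libraries in the first was thus not seen in the second. The gene's total was alike in both quantifications, as given above.

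**Figure D4:**
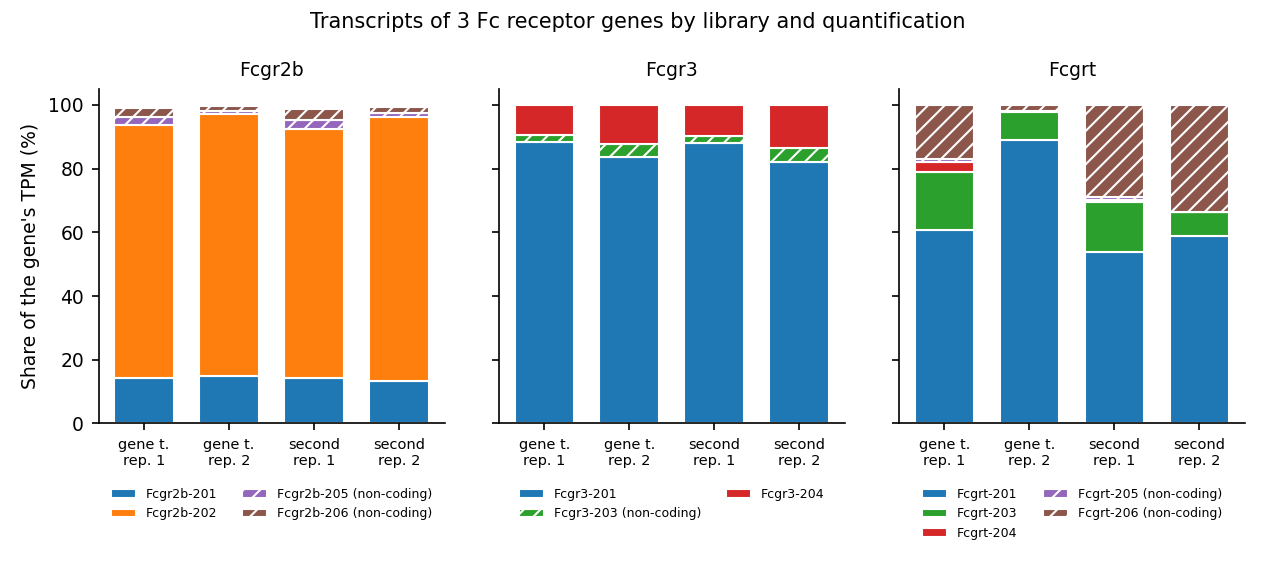
Share of each gene's TPM in its transcripts for Fcgr2b, Fcgr3 and Fcgrt, for replicates 1 and 2 of the gene table's quantification (gene t.) and of the second quantification; transcripts under 1% in all 4 bars are left out and hatched parts are transcripts annotated as other than protein coding. Fcgr2b-202 is the main part of every Fcgr2b bar, and the hatched Fcgrt-206 is 17.0% and 2.04% in the first quantification and 28.9% and 33.5% in the second.

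Likeness of sequence bears on how reads were divided between genes. The coding sequences of the leading transcripts of Fcgr3 and Fcgr2b were 80.6% identical over 788 aligned bases and shared the run of 129 bases printed above. Other pairs of the 4 receptors were 58.6 to 63.1% identical, with longest runs of 12 to 14 bases. Of all windows of 50 bases, 12.8% in Fcgr3-201 and 11.7% in Fcgr2b-202 occurred in the other transcript, and 0 were shared by any other pair. In the gene table the posterior SD of the expected count was 2.29 in replicate 1 and 6.09 in replicate 2 for both Fcgr3 and Fcgr2b, and 0 for the other 4 genes. These are small beside counts of 16496.4 or more, so the shared run left little uncertainty in the division of reads as the authors' model gives it. It covers no other source of error.

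The genes lie in 3 places of the genome (mm10). Fcgr2b (ENSMUSG00000026656.15, chr1:170958617-170976547, minus strand), Fcgr4 (ENSMUSG00000059089.4, chr1:171018920-171029761, plus strand), Fcgr3 (ENSMUSG00000059498.13, chr1:171051174-171064935, minus strand) and Fcer1g (ENSMUSG00000058715.11, chr1:171229572-171234365, minus strand) share a stretch of 276 kb. Fcgr1 (ENSMUSG00000015947.10) is at chr3:96282909-96293969, minus strand, and Fcgrt (ENSMUSG00000003420.8) at chr7:45092990-45103851, minus strand. By counts scaled by TMM, the 3 members that differed most between the libraries were all in the stretch on chromosome 1, which also holds Fcgr4, at -0.29. That stretch holds 4 of the 6 members, and a link between place and difference was not tested. By TPM, Fcgrt, which lies outside the stretch, differed more than Fcer1g, with log2 ratios of replicate 1 over replicate 2 of 0.71 and -0.58. Whether counting used strand is not stated. The antisense gene Gm38204, which overlaps Fcgr2b, had 5 and 2 counts, and Gm45669, which overlaps Fcgrt, had 0 in both. Without strand, reads of a gene and of its antisense partner cannot be told apart.

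Other receptors of antibodies were mostly at or near the limit of detection. Of 14 listed genes 2 reached 1 TPM in both libraries, against 9982 of all 55536 genes. Trim21, a cytosolic receptor that marks antibody-bound particles for degradation, had 144 and 288 TPM in replicates 1 and 2. Fcrls, an Fc receptor-like gene of the mouse, had 63.2 and 129 TPM. Both were higher in replicate 2, by -0.66 and -0.79 on the log2 scale of replicate 1 over replicate 2. Of 5 listed genes with enough counts, 3 were higher in replicate 2 by 1.5-fold and 1 in replicate 1. The shares of all genes were 16.7% and 19.1%. Besides Trim21 and Fcrls these were Fcrl1 (-1.42, at 0.61 and 1.62 TPM) and Fcrlb (0.81, at 1.23 and 0.59 TPM). Fcer1a, the IgE-binding chain that pairs with Fcer1g on mast cells and basophils, had 3 and 0 counts, and Ms4a2, the beta chain of that receptor, had 14 and 0. No counts were assigned to Pigr, Fcamr, Fcer2a and Fcgbp in the gene table, and a count of 0 allows for up to 3 in each library. In the second quantification Fcer2a, a receptor of IgE, had 0.293 and 0.164 TPM in replicates 1 and 2. There Pigr had 0.0201 and 0 TPM and Fcgbp 0 and 0.0268 TPM. The receptor chains of IgE were thus not detectable at more than a trace.

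Fcer1g also serves receptors that recognize microbes and damaged cells, and of those listed Clec4d and Clec4e reached the levels of the receptors of IgG. Of 16 matched genes that pair with Fcer1g or its relative Tyrobp, 8 reached 1 TPM in both libraries, against 9982 of all 55536 genes. Clec4d, a C-type lectin that binds a mycobacterial glycolipid, had 1068 and 899 TPM in replicates 1 and 2. Clec4e, also known as Mincle, had 595 and 503 TPM. Trem2, a lipid-sensing receptor that uses Tyrobp, had 738 and 391 TPM. The lowest was Oscar, at 0 and 0.03 TPM. Of 13 genes with enough counts, 3 were higher in replicate 1 and 2 in replicate 2 by 1.5-fold, against 19.1% and 16.7% of all genes. Clec4n (112 and 205 TPM) and Pira2 (103 and 177 TPM) were higher in replicate 2, with log2 ratios of -1.09 and -0.73. Those higher in replicate 1 included Clec5a (0.71) and Siglech (2.59), the latter at only 1.49 and 0.22 TPM. The summed TPM of the list was 2733 in replicate 1 and 2255 in replicate 2, against 1603.56 and 1988.01 for the activating receptors of IgG. The list includes partners of Tyrobp such as Trem2, so its sum is not that of Fcer1g partners alone.

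Among ITAM adaptors Fcer1g shared the lead with Tyrobp, and their order turned between the libraries. Tyrobp had 2319 and 1344 TPM in replicates 1 and 2, whereas Fcer1g had 1973.7 and 2944.61 TPM. The log2 ratios of counts were 0.58 for Tyrobp, just under 1.5-fold, and -0.85 for Fcer1g. Hcst, which carries no ITAM and signals through phosphoinositide 3-kinase, had 23.5 and 7.32 TPM. The 4 adaptors of antigen receptors in the list stayed under 1 TPM in at least 1 library, with Cd3e lowest at 0.03 and 0 TPM.

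The machinery downstream of the receptors was present throughout. All 25 genes of ITAM signalling reached 1 TPM in both libraries, against 9982 of all 55536 genes. By the mean of both libraries Rac2, a GTPase of phagocytosis, was highest at 389 and 887 TPM in replicates 1 and 2, followed by Pik3r5, a regulatory subunit of phosphoinositide 3-kinase, at 257 and 464 TPM, and by the adaptor Lcp2 at 240 and 441 TPM. Of the kinases that begin the cascade, Lyn had 265 and 295 TPM and Syk 241 and 252 TPM. Plcg1 was lowest at 1.42 and 1.08 TPM, while its relative Plcg2 had 22.6 and 38.8 TPM. Between the libraries 1 of the 25, Vav3 (log2 ratio 0.74), was higher in replicate 1 by 1.5-fold and 8 were higher in replicate 2, against 19.1% and 16.7% of all genes. Their median log2 ratio was -0.47, against 0.01 for all genes, and those of Fcgr3 and Fcer1g were -0.99 and -0.85.

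The inhibitory side was just as broadly present. All 18 genes of inhibitory signalling reached 1 TPM in both libraries, against 9982 of all 55536 genes. By 1.5-fold, 3 were higher in replicate 1 and 6 in replicate 2, against 19.1% and 16.7% of all genes. Lilr4b, a relative of the ITIM receptor Lilrb4a that itself lacks ITIMs, was highest at 1488 and 1079 TPM in replicates 1 and 2. Sirpa, the receptor of CD47, had 437 and 714 TPM, and Pirb, a paired immunoglobulin-like receptor, had 399 and 699 TPM. Fcgr2b, at 541.79 and 996.84 TPM, was thus exceeded by Lilr4b alone of the listed genes, and by none of their ITIM receptors. Inpp5d, the phosphatase that the ITIM of Fcgr2b recruits, had only 14.1 and 16.7 TPM, and Ptpn6, the tyrosine phosphatase SHP-1, had 262 and 396 TPM. Pecam1 was lowest at 1.46 and 1.88 TPM. The median log2 ratio of the list was -0.36, beside -1.08 for Fcgr2b.

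For the neonatal receptor, 5 of 6 genes for its partner and its route reached 1 TPM in both libraries, against 9982 of all 55536 genes. Rab11a, a GTPase of recycling endosomes, had 239 and 144 TPM in replicates 1 and 2, and Vps26a, a subunit of the retromer, had 140 and 134 TPM. Both exceeded Fcgrt, at 88.29 and 54.11 TPM. Alb, which codes for albumin, the other cargo of the receptor and a liver gene, had 0 counts in both libraries.

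**Figure D5:**
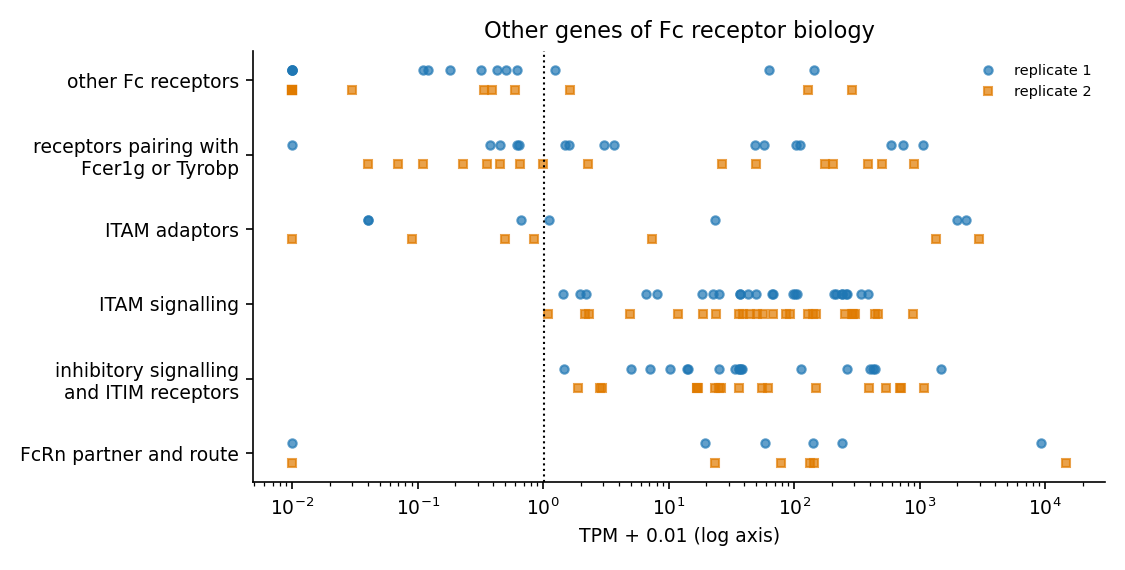
The 6 lists of genes, with the level of each gene along a log axis of TPM + 0.01; blue circles are replicate 1, orange squares below them replicate 2, and the dotted line is at 1 TPM. All 25 genes of ITAM signalling and all 18 of inhibitory signalling lie right of the line, while 2 of the 14 other Fc receptors do so in both libraries.

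The genes whose levels were most like those of each member were taken by distance over the log2 TPM of the 2 libraries, among 9336 protein-coding genes at 1 TPM or more in both. With 2 values a gene, likeness means only a near-equal level in each library. For Fcgr1 they were Cd47 (476 and 384 TPM in replicates 1 and 2) and Lacc1 (469 and 392 TPM). For Fcgr3 they were Rnaset2b and Cd180, for Fcgr4 Snx2 and Rplp0, and for Fcgr2b Lamp2 and Sp100. For Fcer1g they were Tmsb10 (1914 and 2994 TPM) and Ifit1 (2160 and 2552 TPM), Ifit1 at a distance of 0.24, the widest of the 12. For Fcgrt they were Snrpd1 and Mbnl2.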

How the data were processed

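Gene and transcript tables of 2 libraries were used, on mm10 with GENCODE M21 per the deposited notes. Neither the aligner nor the quantifiers, with their versions, are given in the sources used here; the column layouts are those of RSEM (gene table and first transcript table) and kallisto (second quantification, summed per gene here). Expected counts the authors deposited are unnormalized estimates in which shared reads are divided. TPM and FPKM values the authors deposited are scaled to length and library. The percent column the authors deposited is a transcript's share of its gene's TPM, and the posterior SD of the count, a signal-like column of the deposited gene table, gives the error of dividing reads. Spike-in, tRNA and other rows (0.132% of counts in replicate 1, 0.0882% in replicate 2) were left out.

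Symbols were joined to gene rows by identifier. For ratios, counts were rounded, filtered by filterByExpr and scaled by TMM (edgeR 4.0.16, R 4.3.3), with a prior count of 2. A 1.5-fold change was called with no test, since each side is 1 library. Calculations on simulated counts were checked. DESeq2 1.42.0 size factors, library totals, TPM, no filter, 2-fold, the second quantification and, added after seeing the data, removal of the trend of GC and length (mgcv 1.9.3) were alternatives. Coding sequences were aligned with Biopython 1.88. Of each of 6 lists the 3 highest genes, the lowest and up to 4 past 1.5-fold could be named; Lyn, Syk, Plcg2, Inpp5d, Ptpn6, Fcer1a, Ms4a2 and the genes at 0 counts were named after their values were seen. Of 17 genes listed as pairing with Fcer1g or Tyrobp, Pira6 had no match. The 6 members and all lists were chosen with earlier results of these data known. Values of some single genes are not reported here.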

Additional observations from a re-analysis of the deposited data

How the results depend on the processing

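The activating over inhibitory log2 ratio of TPM was 1.28 and lay between 1.00 and 1.57 when either library was left out. It turned negative with Fcgr1 alone (-0.78) or Fcgr4 alone (-0.50) as the activating receptor and was 0.15 with Fcgr3 alone. These changes follow from summing fewer genes. The log2 ratio of Fcer1g to the activating receptors (0.43, and 0.30 to 0.57 with a library left out) turned to -1.28 with expected counts, which are not divided by length. That of Fcgrt to B2m (-7.39, and -8.08 to -6.70) was -6.14 with counts. Of all genes, 4374 differed by 1.5-fold, 9157 without a filter on low counts and 1613 at 2-fold, and of the 6 members 3 did, and 1 at 2-fold. Under the other 6 scalings and quantifications 3 members passed. Of 36 count ratios of single members under alternatives, 34 stayed on their side of 1.5-fold with the same sign. The exceptions were Fcer1g and Fcgrt by TPM. Of 12 TPM values of single members under another quantification or scaling, 9 moved by less than the SD between libraries; the exceptions were Fcgr1 rescaled over nuclear protein-coding genes and Fcgr4 under both. Counts of genes past 1.5-fold and ratios between libraries need both, so none could be recomputed with a library left out. No paired analysis was possible because there is 1 group. Depth limits the genes near 0 counts, such as Fcer1a. The log2 ratio of activating to inhibitory receptors was 1.13 with expected counts, 1.31 with coding transcripts alone and 1.28 in the second quantification. FPKM and a pseudocount of 1 also gave 1.28, but could hardly change it. FPKM is proportional to TPM within a library, and the levels of these receptors far exceed 1 TPM.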
